A study of Homo sapiens with 8 samples.

Results

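Replication-dependent histone genes were examined in input RNA and in ribosome footprints of MOLM-13 cells that carried a hairpin against circMYBL2 or a control hairpin. The genes were taken by name: protein-coding genes of both deposited tables whose symbol places them in a HIST1, HIST2, HIST3 or HIST4 cluster and in class H1, H2A, H2B, H3 or H4. The rule reads names only, although the histone genes were picked for study with earlier results of these data known. It gave 71 of 58302 listed genes: 6 of class H1, 17 of H2A, 18 of H2B, 15 of H3 and 15 of H4. A RefSeq gene table of GRCh38.p14, the build that the submitters call hg38, placed 55 of them on chromosome 6, 15 on chromosome 1 and 1 on chromosome 12.

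MOLM-13 is an established acute myeloid leukaemia line with monocytic features. The sh-circMYBL2 cells carried a short hairpin RNA against circMYBL2, a circular RNA from the MYBL2 gene, and the sh-NC cells carried a control hairpin. The series title asks about translation of FLT3, and histone genes are not named in it. There were 8 libraries in 4 groups of 2: sh-circMYBL2 footprints, sh-NC footprints, sh-circMYBL2 input RNA and sh-NC input RNA. A footprint is the stretch of mRNA that a ribosome shields from nuclease. All groups shared the cell line, and all libraries were made after removal of ribosomal RNA and not by selection of poly(A) tails. Whether the 2 libraries of a group stem from independent cultures is not stated, so the p-values speak only of variation among these libraries, part or all of which may be technical. The sample titles name a single hairpin against the circle, spelled cricMY1, while its footprint columns are headed cricMY1 and cricMY2. Whether those endings mark replicates or another hairpin is not stated, and the columns are treated as 2 libraries of the group, called a and b. Whether cells of a group were 1 clone or many is not given in the sources used here.

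Depth differed strongly between the assays. Reads recovered from the deposited values (see the processing notes) numbered 13507486 to 14606366 on genes in RNA libraries. Footprint libraries held 222855 and 715092 reads with sh-circMYBL2 and 80160 and 300378 with sh-NC. Of these, 125761 and 584185 with sh-circMYBL2 and 33708 and 88701 with sh-NC lay on protein-coding genes, while microRNA genes took 32.8% and 12.2% with sh-circMYBL2 and 42.7% and 57.2% with sh-NC. The shallowest library, sh-NC footprint library 1, stood apart in several results below. Of 12 markers of the line, 11 reached a mean of 1 FPKM and CD14 did not, with 0 FPKM in both sh-circMYBL2 libraries and 0.0368 to 0.0399 FPKM in sh-NC. Their summed RNA was 1008 to 1052 FPKM with sh-circMYBL2 and 819 to 860 FPKM with sh-NC. LYZ made up most of that sum, averaging 729 FPKM with sh-circMYBL2 and 581 FPKM with sh-NC. Of the 11 markers tested, 3 rose past the threshold given below and 0 fell, against 4.92% and 3.96% of all genes. None of 10 erythroid, lymphoid or adherent-cell markers reached a mean of 1 FPKM. The sum of these 10 was 1.29 to 1.36 FPKM with sh-circMYBL2 and 1.39 to 2.28 FPKM with sh-NC.

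Replication-dependent histone genes supply the proteins that package newly made DNA. H3 with H4 and H2A with H2B form the core around which DNA is wound, and H1 binds the linker DNA where it enters and leaves that core. Cells make these mRNAs chiefly in S phase, and most of them lack introns and end in a stem-loop bound by SLBP instead of a poly(A) tail. Their transcription is gathered in nuclear bodies around NPAT, which cyclin E with CDK2 phosphorylates. In bulk cells, a larger share of cells in S phase and more histone mRNA per cell cannot be told apart.

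Promoters are shown because some elements are shared by several classes and others are frequent in 1 or 2 of them only. RefSeq (GRCh38.p14) gave the 250 bases before the start of 66 of the 71 genes. For each class the gene with the largest RNA rise past the test threshold given below is printed, among those with an entry. HIST1H4J, the H4 gene with the smallest RNA change, is added. HIST1H2AB had an entry and a larger change than the H2A gene printed, but did not pass. The printed promoters were chosen after the values of their genes were seen. Each runs 5′ to 3′ on the gene's own strand, and capitals mark every match, on either strand, to ATTTGCAT (the octamer bound by POU2F1), CCAAT (bound by NF-Y), TATAAA (the TATA box) and AAACACA (the H1 box). A match on the other strand appears as its reverse complement, such as ATTGG for CCAAT and ATGCAAAT for the octamer, and no matches overlap in these windows. The regions are chr6:27867589-27867838 (minus strand) for HIST1H1B, chr6:27865067-27865316 (plus) for HIST1H2AL, chr6:27893175-27893424 (plus) for HIST1H2BO, chr6:26032100-26032349 (minus) for HIST1H3B, chr6:27873535-27873784 (minus) for HIST1H4L and chr6:27823842-27824091 (plus) for HIST1H4J.
HIST1H1B: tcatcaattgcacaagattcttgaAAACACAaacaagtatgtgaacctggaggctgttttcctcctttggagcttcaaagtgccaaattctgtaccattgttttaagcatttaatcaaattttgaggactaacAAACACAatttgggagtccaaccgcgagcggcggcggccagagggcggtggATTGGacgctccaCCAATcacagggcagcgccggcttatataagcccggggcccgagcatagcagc
HIST1H2AL: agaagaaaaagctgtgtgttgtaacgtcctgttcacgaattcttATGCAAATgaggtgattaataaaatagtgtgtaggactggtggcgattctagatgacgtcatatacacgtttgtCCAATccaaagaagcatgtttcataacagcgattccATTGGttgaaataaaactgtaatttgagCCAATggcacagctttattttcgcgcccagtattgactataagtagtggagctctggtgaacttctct
HIST1H2BO: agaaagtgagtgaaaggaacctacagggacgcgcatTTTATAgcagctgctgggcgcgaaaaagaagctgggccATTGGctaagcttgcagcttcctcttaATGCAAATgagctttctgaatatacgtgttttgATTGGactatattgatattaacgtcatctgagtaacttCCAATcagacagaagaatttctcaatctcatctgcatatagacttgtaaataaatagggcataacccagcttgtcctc
HIST1H3B: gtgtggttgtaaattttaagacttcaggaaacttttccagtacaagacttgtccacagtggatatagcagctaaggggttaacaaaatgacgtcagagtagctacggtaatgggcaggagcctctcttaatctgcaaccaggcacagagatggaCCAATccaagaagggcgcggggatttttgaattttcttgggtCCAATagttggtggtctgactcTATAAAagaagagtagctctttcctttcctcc
HIST1H4L: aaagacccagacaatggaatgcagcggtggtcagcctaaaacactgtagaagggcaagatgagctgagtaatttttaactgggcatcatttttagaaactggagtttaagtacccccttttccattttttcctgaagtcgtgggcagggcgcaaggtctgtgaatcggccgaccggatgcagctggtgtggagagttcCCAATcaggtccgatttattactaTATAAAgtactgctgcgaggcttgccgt
HIST1H4J: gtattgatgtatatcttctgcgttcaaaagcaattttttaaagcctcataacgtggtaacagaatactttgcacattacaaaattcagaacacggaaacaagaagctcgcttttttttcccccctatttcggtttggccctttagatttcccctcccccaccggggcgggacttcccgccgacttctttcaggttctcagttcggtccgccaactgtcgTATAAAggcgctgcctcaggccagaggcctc

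The octamer stood in 14 of 18 H2B promoters and 11 of 16 H2A promoters, in 1 of 13 H3 promoters and in none of 6 H1 or 13 H4 promoters. The H3 promoter with the octamer was that of HIST1H3D. This gene has the same RefSeq start as HIST1H2AD, so 1 window is counted in both H2A and H3 for each motif. Of all 27305 RefSeq promoters of this length, 1.66% held it. AAACACA was found in 6 of 6 H1 promoters and in none of the other 60, against 4.95% of all promoters. CCAAT was present in each promoter of classes H1, H2A, H2B and H3 but in 3 of 13 H4 promoters, against 33.0% of all promoters. TATAAA was found in 3 of 6 H1, 12 of 16 H2A, 12 of 18 H2B, 10 of 13 H3 and 7 of 13 H4 promoters, against 11.1% of all promoters. The E2F motif TTTGGCGC was in none of the 66 windows and in 0.553% of all promoters. The H4 promoters with CCAAT belonged to HIST1H4F, which had no RNA read, and to HIST1H4I and HIST1H4L, whose RNA changes are given below. A match is a description of these letters and no evidence of binding.

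Histone RNA was higher with sh-circMYBL2 in all 5 classes. On the log2(FPKM + 1) scale, the change of each of the 52 genes that could be tested was above 0, and 30 of them rose past the threshold (limma, Benjamini-Hochberg adjusted p under 0.05 over 12489 genes), while none fell. Across all genes tested, 4.92% rose and 3.96% fell. By class, 3 of 4 H1, 7 of 15 H2A, 10 of 14 H2B, 4 of 7 H3 and 6 of 12 H4 genes rose. The median change was 0.89 for H3, 0.67 for H2A, 0.61 for H2B, 0.52 for H1 and 0.38 for H4, against -0.00 for all genes. In 48 of the 52 both sh-circMYBL2 libraries lay above both sh-NC libraries, where 30.0% of all genes did, and in none did both lie below, where 30.7% of all genes did.

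The number of calls rested on all 4 RNA libraries. With any 1 of them left out, which leaves 1 library in a group, the calls were lost, although 50 to 52 of the 52 histone changes stayed above 0. Without the filter on low values 6 histone genes passed, where 0.188% of all genes rose and 0.137% fell. Limma voom on recovered reads called 42 histone genes, where 13.7% of all genes rose and 12.5% fell. Scaling to the sum of protein-coding genes gave 1918 genes higher and 351 lower, where the scaling as deposited gave 615 higher and 494 lower, and moved the median of all genes to 0.11 and that of the histone genes to 0.76. Differences between classes were not tested. H4 had the lowest class median, and H3 the highest in 3 of 4 fits that left out 1 RNA library (H2B was higher without sh-circMYBL2 library 1).

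Of the other 19 genes, 6 had no read in any library of either assay: HIST1H2AA, HIST1H3C, HIST1H3D, HIST2H3PS2, HIST3H3 and HIST1H4F. HIST1H2AD had no RNA read but 9 footprint reads in all. In RefSeq it lies within HIST1H3D. How reads over overlapping genes were counted is not given in the sources used here, so for these 2 genes 0 reads may not mean absent RNA. The remaining 12 had a mean under 1 FPKM. HIST1H2BB was the only member of this kind with lower values in both sh-circMYBL2 libraries, with 1 read each there and 3 and 5 reads in the sh-NC libraries. Among tested genes, HIST2H4B alone averaged under 1 FPKM in sh-NC cells, with 1.32 ± 0.403 FPKM in sh-circMYBL2 and 0.969 ± 0.158 FPKM in sh-NC libraries (SD, n = 2 each), and it was not called. Within each of the classes H2A, H2B, H3 and H4, most genes encode the same or nearly the same protein, while H1 genes encode different subtypes. Copies such as HIST2H2AA3 and HIST2H2AA4, HIST2H3A and HIST2H3C, or HIST2H4A and HIST2H4B are near-identical in sequence. How the authors counted reads that fit several copies is not given in the sources used here, so the split of reads between such copies is uncertain.

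**Figure D1:**
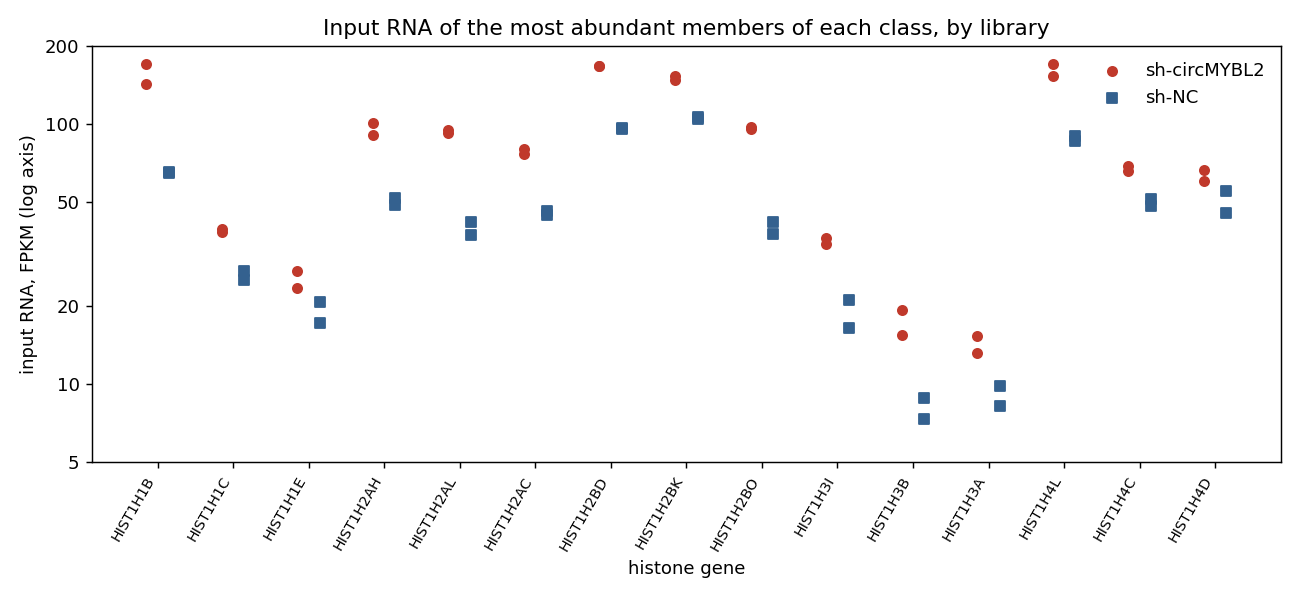
Input RNA level (FPKM, log axis) of the 3 most abundant genes of each class, 1 point per library, with sh-circMYBL2 as circles and sh-NC as squares. Both sh-circMYBL2 libraries lie above both sh-NC libraries for all 15 genes plotted.

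Among linker histones, HIST1H1B, which encodes a main somatic H1 subtype, stood far above the rest. It had 172 and 144 FPKM in sh-circMYBL2 libraries 1 and 2, against 65.6 and 65.1 FPKM in sh-NC libraries 1 and 2. That is 158 ± 19.7 FPKM against 65.3 ± 0.336 FPKM (SD, n = 2 each), and a log2 rise of 1.25 (SE 0.09, limma adjusted p = 0.0117). The groups were far apart, and the sh-circMYBL2 libraries differed more from each other than the sh-NC libraries did. HIST1H1C, another somatic subtype, had 39.4 and 38.6 FPKM with sh-circMYBL2 and 27.3 and 25.0 FPKM with sh-NC, a rise of 0.56 (SE 0.05, limma adjusted p = 0.0180). HIST1H1D, also somatic, had 13.6 and 14.9 FPKM with sh-circMYBL2 and 10.4 and 9.60 FPKM with sh-NC, a rise of 0.47 (SE 0.07, limma adjusted p = 0.0347). For HIST1H1E the values were 23.3 and 27.3 FPKM with sh-circMYBL2 and 17.1 and 20.7 FPKM with sh-NC. The groups did not overlap, but the change of 0.40 (SE 0.12) missed the threshold (limma adjusted p = 0.128). HIST1H1A had 2 reads and 1 read with sh-circMYBL2 and 1 and 0 reads with sh-NC. HIST1H1T, the testis form, was above 0 in sh-circMYBL2 RNA library 2 only, at 0.192 FPKM.

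HIST1H2AL, HIST1H2AH and HIST1H2AC were the most abundant H2A genes, and all 3 rose. HIST1H2AL had 92.4 and 95.0 FPKM with sh-circMYBL2, against 37.3 and 41.9 FPKM with sh-NC, a rise of 1.22 (SE 0.06, limma adjusted p = 0.00972). HIST1H2AH had 91.0 and 101 FPKM with sh-circMYBL2 and 52.1 and 49.0 FPKM with sh-NC, a rise of 0.91 (SE 0.07, limma adjusted p = 0.0117). Values of HIST1H2AC were 80.5 and 76.6 FPKM with sh-circMYBL2 and 46.4 and 44.6 FPKM with sh-NC, a rise of 0.77 (SE 0.04, limma adjusted p = 0.00976). Each of these encodes a canonical H2A, and in none did the groups overlap. HIST1H2AB had the largest H2A change, 1.54 (SE 0.42), without passing the test (limma adjusted p = 0.102). It was low and uneven, with 6.78 and 7.71 FPKM with sh-circMYBL2 and 3.25 and 0.884 FPKM with sh-NC. At the other end, HIST2H2AC had 32.1 and 35.5 FPKM with sh-circMYBL2 and 26.8 and 28.2 FPKM with sh-NC, a change of 0.29 (SE 0.06, limma adjusted p = 0.0684). In all 15 H2A genes tested both sh-circMYBL2 libraries were above both sh-NC libraries.

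H2B held the largest share of histone RNA reads and the most genes that rose. HIST1H2BD, the most abundant, had 168 FPKM in each sh-circMYBL2 library, against 96.7 and 96.4 FPKM with sh-NC, a rise of 0.79 (SE 0.03, limma adjusted p = 0.00720). HIST1H2BK had 154 and 149 FPKM with sh-circMYBL2 and 105 and 107 FPKM with sh-NC, a rise of 0.52 (SE 0.03, limma adjusted p = 0.0117). HIST1H2BO had 97.4 and 96.0 FPKM with sh-circMYBL2 and 37.9 and 41.9 FPKM with sh-NC, and its rise of 1.26 (SE 0.06, limma adjusted p = 0.00799) was the largest of the class. Replicates lay close together in all 3 genes, which encode canonical H2B. HIST1H2BJ followed with 50.3 and 52.8 FPKM with sh-circMYBL2 and 23.7 and 26.9 FPKM with sh-NC, a rise of 1.003 (SE 0.07, limma adjusted p = 0.0117). HIST1H2BG, with 18.5 and 22.1 FPKM with sh-circMYBL2 and 12.3 and 16.1 FPKM with sh-NC, did not pass (limma adjusted p = 0.138). Nor did HIST1H2BN, with 8.84 and 8.75 FPKM with sh-circMYBL2 and 7.66 and 7.05 FPKM with sh-NC (limma adjusted p = 0.0885). HIST1H2BE was the only H2B gene tested whose groups overlapped, at 1.64 and 1.41 FPKM with sh-circMYBL2 and 1.54 and 1.24 FPKM with sh-NC.

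H3 genes were low in RNA: 7 of 15 could be tested, and 4 of these rose. HIST1H3I, the most abundant, had 34.5 and 36.4 FPKM with sh-circMYBL2 and 16.5 and 21.0 FPKM with sh-NC, a rise of 0.90 (SE 0.12, limma adjusted p = 0.0317). HIST1H3B had 15.4 and 19.3 FPKM with sh-circMYBL2 and 8.78 and 7.27 FPKM with sh-NC, a rise of 1.02 (SE 0.14, limma adjusted p = 0.0325). HIST1H3J had 11.1 and 12.1 FPKM with sh-circMYBL2 and 4.37 and 3.05 FPKM with sh-NC, a rise of 1.43 (SE 0.15, limma adjusted p = 0.0219). All of them encode the replication-coupled H3 that forms tetramers with H4, and their groups were clearly apart. HIST1H3A had 13.1 and 15.2 FPKM with sh-circMYBL2 and 8.23 and 9.81 FPKM with sh-NC, a change of 0.60 (SE 0.11) just outside the threshold (limma adjusted p = 0.0543). HIST1H3H had 14.8 and 13.1 FPKM with sh-circMYBL2 and 9.42 and 7.25 FPKM with sh-NC, a change of 0.69 (SE 0.14, limma adjusted p = 0.0603).

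H4 genes, which all encode the same core protein or close to it, had the lowest median change, with abundant genes on both sides of the threshold. HIST1H4L had 171 and 154 FPKM with sh-circMYBL2 and 86.0 and 89.97 FPKM with sh-NC, a rise of 0.88 (SE 0.06, limma adjusted p = 0.0117). HIST1H4H had 27.8 and 28.6 FPKM with sh-circMYBL2 and 14.2 and 16.5 FPKM with sh-NC, a rise of 0.84 (SE 0.08, limma adjusted p = 0.0185). HIST1H4C had 66.1 and 69.0 FPKM with sh-circMYBL2 and 51.5 and 48.6 FPKM with sh-NC, a smaller rise of 0.43 (SE 0.05, limma adjusted p = 0.0218). Next to these, HIST1H4J had 22.2 and 21.2 FPKM with sh-circMYBL2 and 24.0 and 19.0 FPKM with sh-NC. Its groups overlapped, and the change was 0.02 (SE 0.12, 95% interval -0.30 to 0.35, limma adjusted p = 0.917). HIST1H4D and HIST1H4E were abundant but did not pass, with changes of 0.34 (SE 0.11, limma adjusted p = 0.139) and 0.17 (SE 0.05, limma adjusted p = 0.117). HIST1H4D had 66.7 and 60.7 FPKM with sh-circMYBL2 and 55.2 and 45.7 FPKM with sh-NC, and HIST1H4E had 55.8 and 58.1 FPKM with sh-circMYBL2 and 52.4 and 48.8 FPKM with sh-NC. HIST1H4I, low at 2.95 and 2.82 FPKM with sh-circMYBL2 and 0.988 and 1.45 FPKM with sh-NC, rose by 0.82 (SE 0.13, limma adjusted p = 0.0440).

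**Figure D2:**
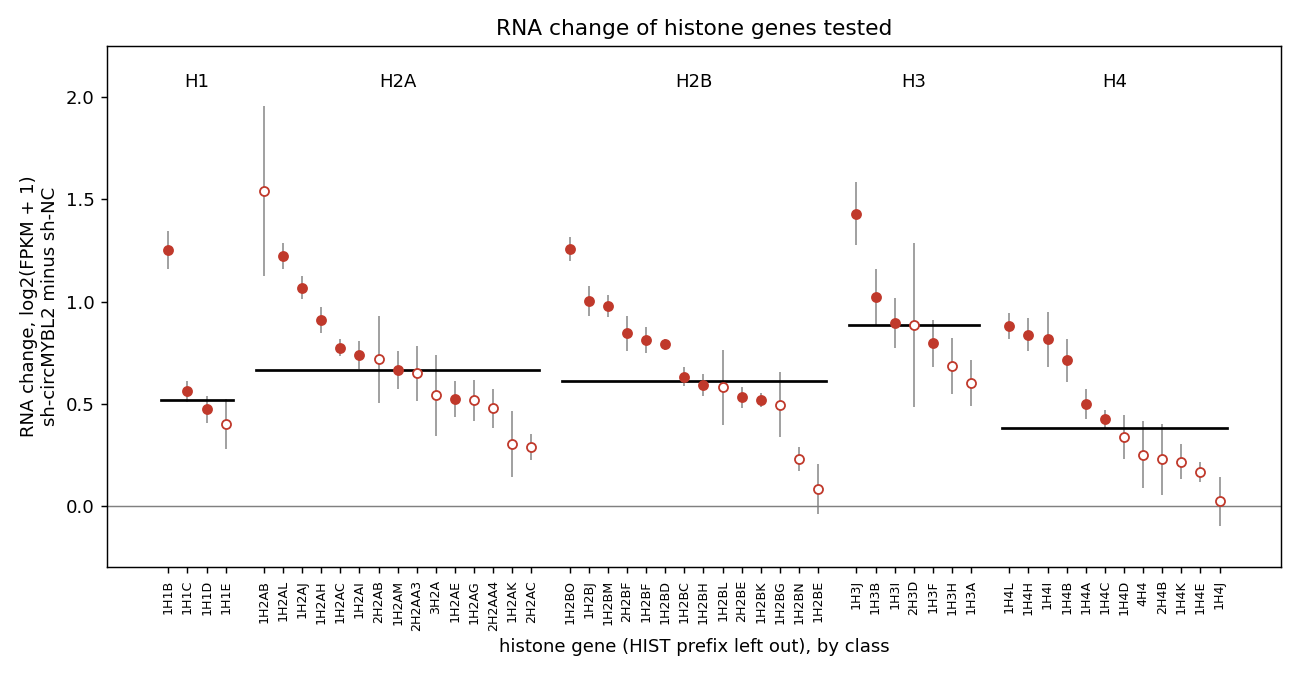
RNA change, sh-circMYBL2 minus sh-NC, on the log2(FPKM + 1) scale for the 52 histone genes tested, ordered within each class, with vertical lines for the SE of the limma fit and horizontal bars for class medians. Filled points passed the adjusted threshold (30 genes), all points lie above 0, and HIST1H4J is the lowest at 0.02.

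Summed over a class, RNA was 1.96 times as high with sh-circMYBL2 as with sh-NC for H1, 1.92 times for H3, 1.76 times for H2A, 1.71 times for H2B and 1.45 times for H4. Summed H1 RNA was 248 and 225 FPKM with sh-circMYBL2 and 121 and 120 FPKM with sh-NC. H4 RNA was 473 and 451 FPKM with sh-circMYBL2 and 327 and 313 FPKM with sh-NC. In each class both sums with sh-circMYBL2 were above both with sh-NC. All 71 genes together took 0.175% of protein-coding RNA reads in each sh-circMYBL2 library (95% Wilson intervals 0.173% to 0.178% in both), against 0.105% and 0.104% in the sh-NC libraries (0.103% to 0.107% and 0.102% to 0.106%). These intervals cover counting error only. Within histone RNA reads, H4 made up 21.2% and 20.7% with sh-circMYBL2 and 24.8% and 24.2% with sh-NC, while H1 made up 12.3% and 11.2% with sh-circMYBL2 and 9.83% and 9.87% with sh-NC.

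**Figure D3:**
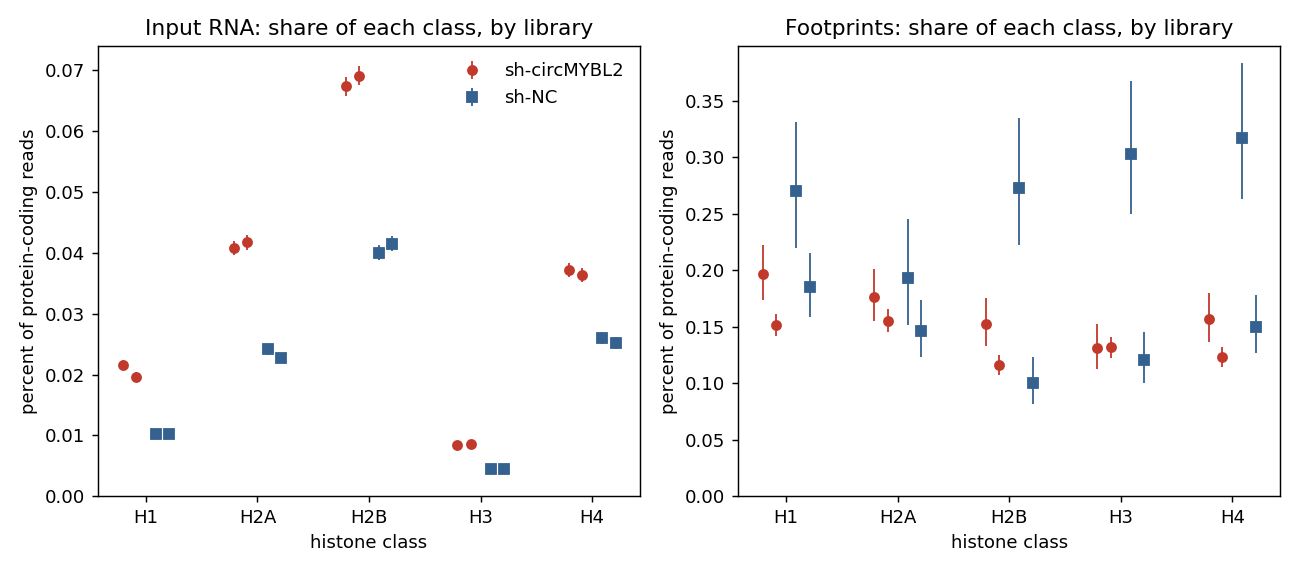
Share of protein-coding reads on each histone class by library, input RNA on the left and footprints on the right, with 95% Wilson intervals. In RNA the sh-circMYBL2 libraries (circles) lie above the sh-NC libraries (squares) in all 5 classes, while in footprints sh-NC library 1 is highest in all 5 classes and sh-NC library 2 lies between or below the sh-circMYBL2 libraries.

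A shift of this kind was not detected in footprints on histone genes. Together the 71 genes took 0.813% and 0.677% of protein-coding footprint reads with sh-circMYBL2 (1023 and 3957 reads), against 1.36% and 0.702% with sh-NC (457 and 623 reads). The 95% Wilson intervals were 0.765% to 0.865% and 0.657% to 0.699% with sh-circMYBL2 and 1.24% to 1.48% and 0.649% to 0.759% with sh-NC. The groups overlapped, and the highest share was that of sh-NC library 1, the shallowest. Of 56 histone genes tested in footprints none passed, and none of all 9431 genes did, 0% in either direction (limma adjusted p under 0.05). At an unadjusted p under 0.05 there were 1212 of the 9431 genes, among them 10 of the 56 histone genes, all 10 higher with sh-circMYBL2. Except for HIST1H2AE and HIST1H2BC, these 10 had no read in either sh-NC library, the group of lower depth. Limma voom on recovered reads called 6 genes higher and 50 lower, and no histone gene. At an unadjusted p under 0.05 voom gave 1303 of the 9431 genes, among them 1 histone gene higher and 1 lower of the 56. Both sh-circMYBL2 libraries lay above both sh-NC libraries in 16 of the 56, where 30.7% of all genes did, and below them in 6, where 10.9% of all genes did.

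The log2(RPKM + 1) footprint change had a median of -0.02 over the 56 genes, against 0.56 over all genes, but 9 of the 56 had no read in either sh-NC library. With such genes set at a floor of 3 reads over the group at 0, the medians were -0.18 for histone genes and 0.26 for all genes. For the 36 histone genes with a footprint in all 4 libraries the median was -0.25, and 11 of the 36 were above 0, while the 4438 genes of that kind had a median of -0.01. This median depended on single libraries: it was 0.07 without sh-NC library 1, -0.70 without sh-NC library 2, -0.40 with library a of sh-circMYBL2 left out and -0.07 with library b left out. Quantile normalization turned its sign, with 0.42 for the histone genes against -0.18 for all genes of that kind. No direction of histone footprints is therefore given.

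HIST1H1B had the most footprint reads of any member, as well as high RNA. Its footprints were 533 and 492 RPKM in sh-circMYBL2 libraries a and b (94 and 373 reads), against 625 and 657 RPKM in sh-NC libraries 1 and 2 (35 and 83 reads). The groups did not overlap, sh-circMYBL2 being lower, but the change of -0.32 (SE 0.37, 95% interval -1.33 to 0.68) did not pass (limma adjusted p = 0.737). HIST1H1E had 461 and 300 RPKM with sh-circMYBL2 and 645 and 293 RPKM with sh-NC, and HIST1H1C had 349 and 337 RPKM with sh-circMYBL2 and 303 and 327 RPKM with sh-NC. The groups overlapped for HIST1H1E and lay close together for HIST1H1C (limma adjusted p = 0.882 and 0.892). HIST1H1D was much lower, with 29.0 and 24.3 RPKM (5 and 18 reads) with sh-circMYBL2 and 0 and 8.09 RPKM (0 reads and 1 read) with sh-NC.

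For H2A, HIST1H2AG and HIST1H2AC held the most footprint reads. HIST1H2AG had 75.5 and 75.0 RPKM with sh-circMYBL2 and 135 and 62.2 RPKM with sh-NC, and HIST1H2AC had 88.0 and 87.2 RPKM with sh-circMYBL2 and 87.5 and 84.0 RPKM with sh-NC. Neither changed past the spread of the libraries (limma adjusted p = 0.831 and 0.971). HIST1H2AB had 68.8 and 112 RPKM with sh-circMYBL2 (7 and 49 reads) and no read in either sh-NC library. Divided by scaling totals (see the processing notes), its sh-circMYBL2 reads came to 3.64 times the floor of 3 reads over both sh-NC libraries. This ratio takes the observed reads as exact, so it is no lower bound. The limma adjusted p was 0.323.

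Among H2B genes, HIST1H2BN had 33.1 and 18.0 RPKM with sh-circMYBL2 and 15.5 and 17.7 RPKM with sh-NC, spread over an exonic length of 5477 bases. HIST1H2BG had 50.4 and 52.7 RPKM with sh-circMYBL2 and 222 and 35.1 RPKM with sh-NC. The high value was again that of sh-NC library 1, with 28 of the 38 sh-NC reads. HIST1H2BK stood out for how few footprints it had: 0 and 9 reads with sh-circMYBL2 and 0 and 4 reads with sh-NC, although it was among the most abundant histone RNAs in both groups. HIST1H2BD had 75.4 and 47.4 RPKM with sh-circMYBL2 and 154 and 37.1 RPKM with sh-NC, and HIST1H2BO had 132 and 139 RPKM with sh-circMYBL2 and 383 and 156 RPKM with sh-NC.

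H3 genes, low in RNA, were well covered by footprints. HIST1H3H had 150 and 265 RPKM with sh-circMYBL2 (48 and 365 reads) and 118 and 196 RPKM with sh-NC (12 and 45 reads). HIST1H3B had 545 and 378 RPKM with sh-circMYBL2 and 887 and 354 RPKM with sh-NC. The groups overlapped in both genes (limma adjusted p = 0.767 and 0.846). HIST1H3I, the H3 gene with the most RNA, had 84.6 and 76.5 RPKM with sh-circMYBL2 and 710 and 105 RPKM with sh-NC. Its groups did not overlap, but the sh-NC libraries were far from each other, and the change of -1.75 (SE 1.01) did not pass (limma adjusted p = 0.597).

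Of the H4 genes, HIST1H4E had 156 and 89.4 RPKM with sh-circMYBL2 and 155 and 167 RPKM with sh-NC. HIST1H4C had 293 and 273 RPKM with sh-circMYBL2 and 1006 and 124 RPKM with sh-NC. The sh-circMYBL2 libraries lay between the sh-NC libraries for HIST1H4C, and the groups overlapped for HIST1H4E (limma adjusted p = 0.911 and 0.695). HIST1H4L, the H4 gene highest in RNA, had 37.1 and 95.0 RPKM with sh-circMYBL2 and 273 and 86.3 RPKM with sh-NC. HIST1H4J had 1 footprint read in each sh-circMYBL2 library and none with sh-NC, so that nothing can be said of its footprints at this depth.

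Classes differed between the assays in their part of histone reads, with either hairpin. H3 genes made up 4.80% and 4.93% of histone RNA reads with sh-circMYBL2 and 4.21% and 4.25% with sh-NC, but 16.1% and 19.4% of histone footprint reads with sh-circMYBL2 and 22.3% and 17.2% with sh-NC. H2B went the other way, with 38.5% and 39.4% of RNA reads with sh-circMYBL2 and 38.2% and 39.9% with sh-NC, and 18.8% and 17.1% of footprint reads with sh-circMYBL2 and 20.1% and 14.3% with sh-NC. H1 took 24.1% and 22.3% of histone footprints with sh-circMYBL2 and 19.9% and 26.3% with sh-NC, above its part in RNA. In these 3 classes no footprint library overlapped an RNA library. RNA reads come from whole exons and footprints chiefly from coding sequence, and the share of each gene that is coding was not measured here. Across the 56 genes with reads in both assays, summed footprint reads and summed RNA reads had Pearson's r of 0.61 and Spearman's rho of 0.60, a description over genes that share libraries.

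**Figure D4:**
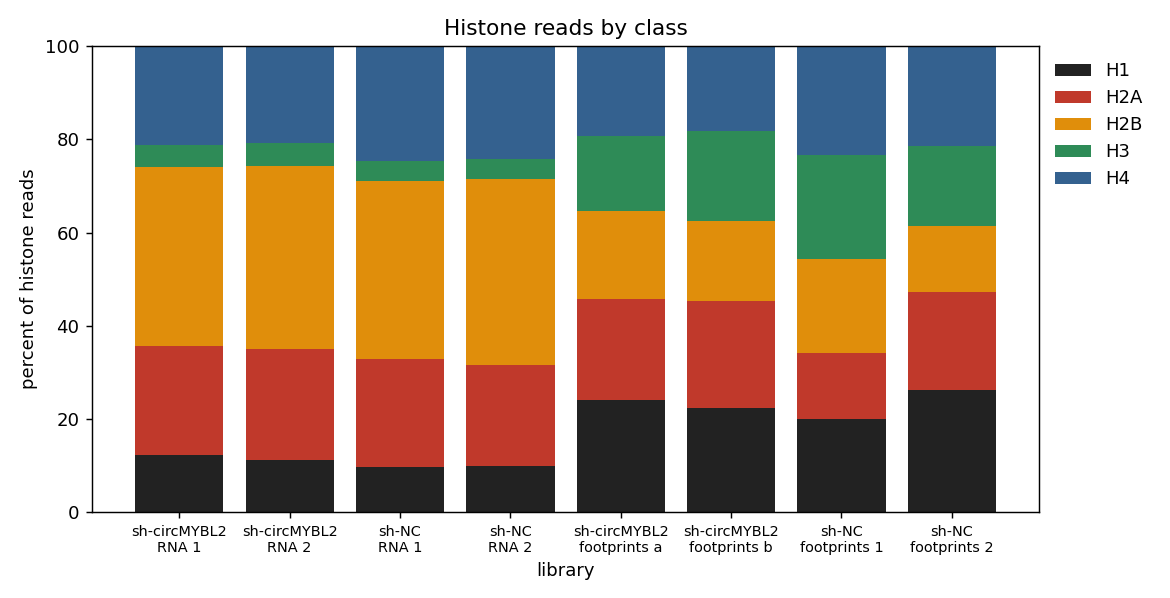
Percent of histone reads on each class (H1 at the bottom to H4 at the top) in each of the 8 libraries. H3 takes 4.21% to 4.93% of histone reads in RNA libraries and 16.1% to 22.3% in footprint libraries, and H2B is smaller in all footprint libraries than in RNA libraries.

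The footprint change was set against the RNA change as the change in translational efficiency (TE), a limma interaction term fitted over all 8 libraries. Of 51 histone genes tested, HIST1H1B was lower and 5 were higher past the threshold, against 0.266% lower and 5.05% higher of 8260 genes. HIST1H1B had a TE change of -1.57 (SE 0.28, limma adjusted p = 0.0386): its RNA rose while its footprints were a little lower. The 5 higher genes were HIST1H2AB, HIST1H2AK, HIST2H2AB and HIST2H2AC of class H2A, and HIST1H4K of class H4. None of these 5 had a footprint read in sh-NC libraries, so their fitted changes are no measure of size. HIST1H2AK had 2 and 16 footprint reads with sh-circMYBL2, HIST2H2AB 3 and 22, HIST2H2AC 4 and 10, and HIST1H4K 4 and 18. Divided by scaling totals, these reads came to 1.63 times the floor of 3 reads over both sh-NC libraries for HIST2H2AB. The ratio was 1.43 for HIST1H4K, 1.17 for HIST1H2AK and 0.911 for HIST2H2AC. Such ratios take the observed reads as exact and were worked out only for genes without an sh-NC read. They are therefore no lower bounds, and no rise is read from them.

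These TE calls depended on the setting. Footprints and RNA share 1 variance for a gene in this model although they vary unequally. With weights that let the assays differ none of the 6 passed (limma adjusted p = 0.556 for HIST1H1B and 0.138 for HIST1H4K). Nor did any with quantile normalization. The set of histone genes called also changed with any 1 library of either assay left out, which leaves 1 library in a group. The lower call of HIST1H1B was also lost with a pseudocount of 5 (limma adjusted p = 0.0851).

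Over the 35 histone genes above 0 in all 8 libraries and tested in both assays, the footprint change was below the RNA change in 30, that is 85.7%, against 48.7% of the 4186 genes of that kind. Their median TE change was -0.83, against 0.03. The RNA change and footprint change of these 35 genes had Pearson's r of -0.10 and Spearman's rho of -0.07, as a description across genes. All 35 were above 0 in RNA change, and the footprint side of this comparison carries the dependence on single libraries given above.

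**Figure D5:**
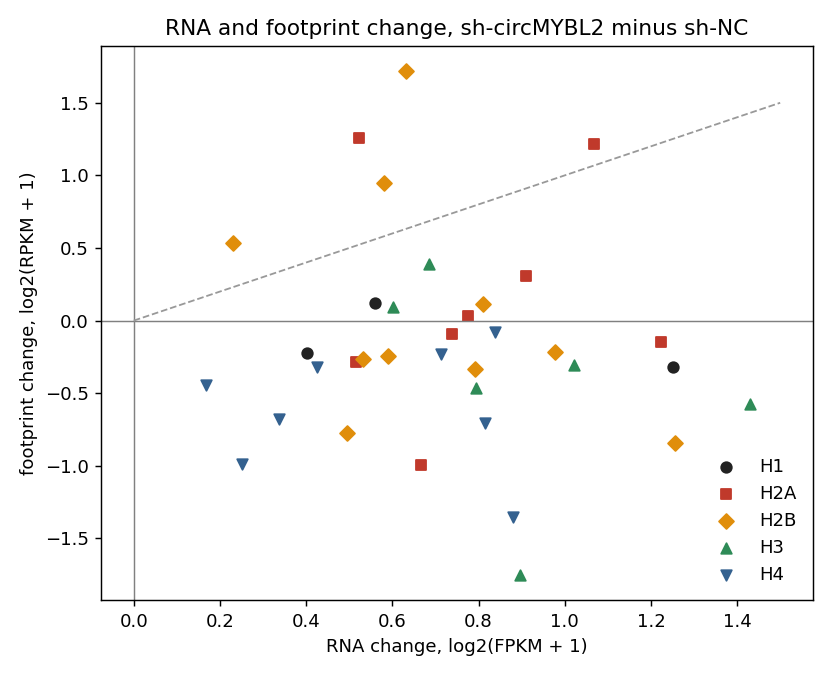
Footprint change, log2(RPKM + 1), against RNA change, log2(FPKM + 1), both sh-circMYBL2 minus sh-NC, for the 35 histone genes above 0 in all libraries, with a symbol for each class and a dashed line where both changes are equal. All points lie right of 0, and 30 lie below the dashed line.

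Pairs of histone genes that start back to back within 1000 bases were sought among the 66 genes with a RefSeq promoter entry. There were 13 such pairs, of which 11 joined an H2A and an H2B gene, with 194 to 979 bases between starts. HIST1H2BF is counted in 2 of them, with HIST1H2AD and with HIST1H3D, which share 1 RefSeq start. The search is not complete, since genes without an entry were left out. HIST1H2AH was 1 of these. It begins at base 27147106 of chromosome 6, near HIST1H2BK, which ends at base 27146858, and both genes rose. Both partners could be tested in RNA in 9 of the 13 pairs. In 4 of them both rose, in 4 only 1 partner passed, and in 1 neither did. The partners' changes differed by a median of 0.16 in size, and this was not set against other pairs of genes. HIST1H2AJ and HIST1H2BM, 245 bases apart, rose by 1.07 and 0.98, and HIST1H2BG and HIST1H2AE, 233 bases apart, had changes of 0.50 and 0.52, of which the second passed (limma adjusted p = 0.138 and 0.0451). The least alike pairs were HIST1H2AM and HIST1H2BO, which rose by 0.67 and 1.26, and HIST1H2BJ and HIST1H2AG, with 1.003 and 0.52. The strand setting of the count is not given in the sources used here, so reads of overlapping transcripts in such pairs cannot be told apart with certainty.

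Of the 42 genes of the HIST1 cluster tested, 28 rose, with a median of 0.68, and of the 8 tested in HIST2, 2 rose, with a median of 0.59. HIST3H2A and HIST4H4 were the only genes tested in their clusters, with changes of 0.54 and 0.25 that did not pass (limma adjusted p = 0.172 and 0.383). Some histone genes are annotated with long transcripts. Those with an exonic length of at least 1000 bases had a median RNA change of 0.53, with 7 of 15 rising, and shorter ones a median of 0.67, with 23 of 37 rising. No test was made between these sets. RNA change and mean RNA level were weakly related across the 52 genes (Pearson's r 0.21, Spearman's rho 0.19), again a description.

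Among 22 tested genes of histone mRNA processing and S-phase histone transcription, 6 rose in RNA and none fell, with a median of 0.18 against -0.00 for all genes. Of all genes, 4.92% rose and 3.96% fell. Over the alternatives the list had 0 to 11 genes higher and 0 to 1 lower, with most under scaling to protein-coding genes, where 15.4% of all genes rose, and 10 higher and 1 lower with voom, where 13.7% of all genes rose and 12.5% fell. The 4 most abundant were LSM1, SLBP, MIER1 and CPSF3. SLBP, which binds the stem-loop of histone mRNA, had 28.4 and 29.5 FPKM with sh-circMYBL2 and 23.1 and 22.4 FPKM with sh-NC, a rise of 0.33 (SE 0.04, limma adjusted p = 0.0246). LSM1, part of the ring that starts histone mRNA decay, averaged 58.0 ± 1.01 FPKM with sh-circMYBL2 and 53.6 ± 0.0403 FPKM with sh-NC (SD, n = 2 each; limma adjusted p = 0.108), and the cleavage nuclease CPSF3 averaged 16.9 ± 0.110 FPKM with sh-circMYBL2 and 14.5 ± 0.929 FPKM with sh-NC (limma adjusted p = 0.102). MIER1 averaged 16.3 ± 0.572 FPKM with sh-circMYBL2 and 16.8 ± 0.0397 FPKM with sh-NC (limma adjusted p = 0.543). The other genes that rose, named here after their values were seen, were CCNE2 and CCNE1, the cyclins E, with 0.94 and 0.78, their kinase CDK2 with 0.72, the histone locus body protein CASP8AP2 with 0.45, and YY1 with 0.34. NPAT, the central factor of that body, averaged 5.65 ± 0.00785 FPKM with sh-circMYBL2 and 4.71 ± 0.0792 FPKM with sh-NC, a change of 0.22 that did not pass (limma adjusted p = 0.0851). In TE 1 of 21 of these genes passed, against 5.05% higher of all genes, and none of all genes passed in TE with quantile normalization or with any 1 RNA library left out. It was MIF4GD, which links SLBP to translation, with a change of 2.46 (SE 0.36, limma adjusted p = 0.0303), and it too had no sh-NC footprint read.

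Histone chaperones and import factors gave 4 of 17 tested genes that rose and none that fell, with a median of 0.13, against 4.92% and 3.96% of all genes. Alternatives gave 0 to 10 higher and 0 to 1 lower, again with most under scaling to protein-coding genes (15.4% of all genes higher). The 4 most abundant, NAP1L1, SUPT16H, IPO5 and ATRX, did not pass. NAP1L1, a carrier of H2A and H2B, averaged 114 ± 3.41 FPKM with sh-circMYBL2 and 121 ± 1.64 FPKM with sh-NC. SUPT16H, a subunit of FACT, averaged 38.7 ± 0.0845 FPKM with sh-circMYBL2 and 34.7 ± 0.513 FPKM with sh-NC (limma adjusted p = 0.0637). IPO5, an import factor for histones, averaged 26.3 ± 0.459 FPKM with sh-circMYBL2 and 24.3 ± 0.258 FPKM with sh-NC, and ATRX, which works with DAXX, averaged 21.3 ± 0.0216 FPKM with sh-circMYBL2 and 21.7 ± 0.127 FPKM with sh-NC (SD, n = 2 each). The 4 that rose, named after their values were seen, were CHAF1A, the large subunit of the replication-coupled H3 and H4 chaperone CAF-1, by 0.80, NASP, a keeper of soluble H3 and H4, by 0.76, RBBP7 by 0.42, and HAT1, which acetylates new H4, by 0.35.

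Replication-independent histone genes, most of which are expressed outside S phase and give polyadenylated mRNA, had calls in both directions. Of 9 tested, 1 rose and 2 fell, with a median of 0.20, against 4.92% and 3.96% of all genes. All of the 9 but the 2 that fell had a change above 0. With scaling to protein-coding genes, where 15.4% of all genes rose and 2.81% fell, 6 of the 9 rose and 1 fell, and the alternatives ranged over 0 to 6 higher and 0 to 2 lower. H2AFY, which encodes macroH2A, had 56.1 and 54.6 FPKM with sh-circMYBL2 and 44.4 and 45.5 FPKM with sh-NC, a rise of 0.29 (SE 0.03, limma adjusted p = 0.0242). H3F3B, a gene for the replacement H3, fell to 34.9 and 35.0 FPKM with sh-circMYBL2, against 39.8 and 41.7 FPKM with sh-NC, a change of -0.22 (SE 0.04, limma adjusted p = 0.0485) that was lost with scaling to protein-coding genes (-0.085, limma adjusted p = 0.196). Its sister gene H3F3A had 44.2 and 42.2 FPKM with sh-circMYBL2 and 39.1 and 36.2 FPKM with sh-NC, a change of 0.20 that did not pass (limma adjusted p = 0.102). H2AFZ, which encodes a replacement H2A, had 26.8 and 25.6 FPKM with sh-circMYBL2 and 23.2 and 22.2 FPKM with sh-NC, a change of 0.20 (SE 0.04) that did not pass either (limma adjusted p = 0.0735). H1F0, the replacement linker histone, fell by 0.47 on the log2 scale (limma adjusted p = 0.0367). The largest changes of the list were those of H2AFX, 0.73 (limma adjusted p = 0.0633), and CENPA, 0.59 (limma adjusted p = 0.0625). Neither passed, although their groups did not overlap. H1F0, H2AFX and CENPA were named after their values were seen. Among the replication-dependent genes, by comparison, none of the 52 tested fell.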

How the data were processed

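Input RNA and ribosome footprints of MOLM-13 cells were analysed from 2 deposited tables. The authors gave footprints as RPKM and input RNA as FPKM. The values fit reads divided by gene length and by a scaling total of each library. That total was not the sum of reads on genes. It was 185632 for sh-NC footprint library 2, with 300378 reads on genes, and 258923 for sh-circMYBL2 footprint library a, with 222855. How it was set is not given in the sources used here. Per the labels' protocols, ribosomal RNA was removed with a kit before small RNA library preparation. The authors used cutadapt, Bowtie, HISAT2, featureCounts, DESeq2 and build hg38, per the submitters' processing notes, with versions and roles not given in the sources used here. Footprint columns of sh-circMYBL2 carry no replicate number and are called a and b; other columns match sample titles. All value columns were used.

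Reads were recovered from the tables, since each value times gene length is a whole multiple of a library step. The shortest length that made all values of a gene whole was used. For genes above 0 in few libraries the recovered reads may therefore be too few. Of microRNA genes above 0, 98.2% to 99.1% came out whole within 0.02 reads. Recovered reads gave depths, shares, Wilson intervals at 95% and, for groups without reads, a floor of 3 reads, and did not enter the main tests. They cover counting error only, since no molecular identifiers are known.

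Each table was fitted whole with limma 3.58.1 in R 4.3.3 (lmFit, eBayes with trend, two-sided) on log2(value + 1), keeping genes that average 1 or more over the 4 libraries. This scale understates changes of low genes. TE was a hairpin-by-assay interaction over 8 libraries. Benjamini-Hochberg adjustment ran over every gene tested in a comparison, and calls were made at 0.05. An exact permutation of 2 against 2 libraries cannot go below p = 0.333. The scripts were tested on simulated data. Alternatives were the pseudocount, the filter, quantile normalization, scaling to protein-coding genes, voom on recovered reads, assay weights, a replicate block in RNA and leaving out each library.

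The members and lists were chosen with earlier results of these data known. Named with values were, per class, the 3 genes highest in RNA, the 2 with the largest RNA change, the 2 with the most footprint reads, all H1 genes, genes past a footprint or TE threshold and the 4 most abundant genes in each of the lists of processing factors, chaperones and replication-independent histones; cell markers are given as counts and sums. CCNE1, CCNE2, CDK2, CASP8AP2, YY1, MIF4GD, NASP, CHAF1A, RBBP7, HAT1, H1F0, CD14, HIST1H2BE, HIST1H4I, HIST1H4J, HIST2H4B, HIST1H2BB, HIST1H2AD, HIST3H2A, HIST4H4, NPAT, the gene pairs and the footprints of genes named for RNA fall outside this rule and were picked with their values known. HIST1H2AE, HIST1H2BC, H2AFX, CENPA and LYZ were likewise named with their values known. Promoters came from a RefSeq table of GRCh38.p14.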

Additional observations from a re-analysis of the deposited data

How the results depend on the processing

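Limits first: 2 libraries per group leave few degrees of freedom, footprint depth is low and uneven, and near-identical histone genes share reads. All 52 RNA changes stayed above 0 under each pseudocount and filter that kept them, quantile normalization, protein-coding scaling, the replicate block and voom. Genes higher in RNA numbered 56, lower 41 and histone genes higher 6 without the filter. With protein-coding scaling 1918 genes were higher, and with voom on recovered reads 1705 were higher and 1561 lower. With the replicate block in the RNA fit the counts of genes higher, genes lower and histone genes higher were 0, 0 and 0. In that limma fit 42 of 52 histone genes and 3373 of all 12489 genes had an unadjusted p under 0.05. The smallest adjusted p of a histone gene was 0.0502 in limma. The same-numbered samples' deviations had a correlation of 0.027 over 2 pairs, so the numbers were not taken to pair samples. The sh-circMYBL2 footprint columns carry no replicate number, so no block was fitted for footprints or TE. Leaving out each RNA library in turn gave 0 genes higher, 0 lower and 0 histone genes higher in each of the 4 fits. The cause of these changes was not tested beyond the fewer samples or the larger number of genes tested. The median RNA change of histone genes was 0.75 with a pseudocount of 0.1, 0.47 with 5, 0.55 without the filter, 0.76 with protein-coding scaling and 0.76 with voom.

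For footprints, voom called 6 genes higher and 50 lower. Leaving out 1 footprint library gave 0 to 1035 genes higher, 0 to 7 lower and 0 to 4 histone genes higher. Quantile normalization turned footprint changes to 0.82 for HIST1H1B, 0.90 for HIST1H1E, 0.21 for HIST1H2AG, 0.76 for HIST1H3B, 0.65 for HIST1H4C and 0.26 for HIST1H4E. HIST1H2AC became -0.032 with protein-coding scaling and HIST1H4C 0.12 with voom. With 1 footprint library left out, changes ran between -0.79 and 0.34 for HIST1H1E, -0.83 and 0.27 for HIST1H2AG, -2.09 and 0.54 for HIST1H2BG, -0.97 and 0.36 for HIST1H3B, and -1.83 and 1.18 for HIST1H4C, lowest without sh-NC library 2 and highest without sh-NC library 1. For HIST1H3H they ran between -0.021 without sh-circMYBL2 library b and 0.80 without library a, and HIST1H1E was 0.085 without library b. None of these footprint changes passed the test in the first place, and the cause was not tested.

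For TE, a pseudocount of 0.1 gave 812 genes higher and 41 lower, with 8 and 2 histone genes, and a pseudocount of 5 gave 2 and 0, with 1 and 0 histone genes. A mean of at least 5 gave 39 and 3, with 0 histone genes lower. Quantile normalization gave 0 and 0, with 0 and 0 histone genes. Assay weights gave 1 and 0, with 0 and 0 histone genes. Leaving out each library in turn gave 0 to 3673 genes higher and 0 to 1222 lower, with 0 to 12 histone genes higher and 0 to 28 lower. The cause was not tested.

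Over all 3 comparisons and alternatives, values of single named histone genes kept direction and side of the threshold in 377 cases, lost the threshold in 134, gained it in 20 and changed sign in the 15 footprint cases above.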

Other observations

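The tables also list 19 rows named like the histone genes but annotated as pseudogenes, which entered no comparison. Of these, 9 had an RNA read and 1 passed the filter, HIST2H2BC, with 22 and 18 reads in sh-circMYBL2 libraries and 17 and 18 reads in sh-NC libraries. It was not called.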
